A study of Mus musculus with 4 samples.

Results

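The genes described here are interferon-stimulated genes, a list of 39 mouse genes whose transcription is known to be raised by interferons. They were taken by symbol, and 38 of the 39 had a row among the 27998 genes of the count matrices; Mx2 had none. Their level was followed in single-nucleus RNA sequencing of kidneys from C57BL/6 mice at postnatal week 22, in 2 libraries of kidneys treated with losartan and 2 libraries of untreated kidneys. The nuclei came from flash-frozen tissue, so the counts reflect nuclear RNA. Losartan blocks the angiotensin II type 1 receptor. The labels name no other agent, no disease model and no genetic change in either group, and they give no dose, route or duration of treatment, no sex and no number of animals. They do not say that the 2 libraries of a group came from separate animals, so every p-value below measures the spread between libraries, part of which may be technical.

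Interferons bind receptors on the cell surface and activate kinases of the JAK family. Type I interferon brings STAT2 and IRF9 to the interferon-stimulated response element in the promoters of target genes, and interferon gamma acts mainly through the gamma-activated site. The products sense viral RNA, block translation, degrade nucleic acids, tag proteins with ISG15 or hold budding virus at the membrane. In kidney they are known from viral nephropathy, lupus nephritis and ageing, in tubular, endothelial and immune cells alike. By role, the members with a row were 4 transcription factors, 3 RNA sensors, 4 RNA-binding or translation-blocking effectors, 8 proteins of ubiquitin-like tagging and ADP-ribosylation, 9 nucleases, nucleotide enzymes and related restriction factors, 4 GTPases and 6 others.

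The promoters of the members were searched for the response element. Windows around the RefSeq gene starts, 250 bases before to 50 after, were found by symbol for 30 of the 38 members, 37 windows in all. The core of the element was searched as GAAANNGAAA on both strands, with overlapping matches counted. It was present in 37.8% of the members' windows and in 3.44% of the 32851 windows of all genes. In all, 14 of the 30 members had it and 16 did not; 11 had it before the start and 6 had at least 2 matches. The gamma-activated site, searched as TTCNNNGAA on both strands, was present in 21.6% of the members' windows, against 8.3% of all. The windows below run 5′ to 3′ on the strand of the gene and stop at the base before the start, with matches to GAAANNGAAA, or to its reverse complement, in capitals. Isg15 is shown for its 3 overlapping matches, Ifit1 and Ifit3 for their paired matches, Stat2 for a match in a gene whose protein binds the element, and Rsad2 and Oasl1 because their values below differ from each other. The coordinates are of build GRCm38.p6: Isg15 chr4:156200819-156201068 on the minus strand, Ifit1 chr19:34640639-34640888 on the plus strand, Ifit3 chr19:34583279-34583528 on the plus strand, Stat2 chr10:128270248-128270497 on the plus strand, Rsad2 chr12:26456453-26456702 on the minus strand and Oasl1 chr5:114922990-114923239 on the plus strand.
Isg15: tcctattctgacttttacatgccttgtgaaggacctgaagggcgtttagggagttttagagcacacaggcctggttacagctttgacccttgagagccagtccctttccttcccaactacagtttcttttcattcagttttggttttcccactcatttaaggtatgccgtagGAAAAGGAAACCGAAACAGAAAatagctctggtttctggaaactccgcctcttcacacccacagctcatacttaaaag
Ifit1: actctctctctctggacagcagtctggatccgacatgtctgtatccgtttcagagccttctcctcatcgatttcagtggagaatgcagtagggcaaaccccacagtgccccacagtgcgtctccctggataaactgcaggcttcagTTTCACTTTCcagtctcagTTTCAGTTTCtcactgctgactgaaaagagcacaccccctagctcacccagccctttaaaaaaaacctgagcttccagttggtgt
Ifit3: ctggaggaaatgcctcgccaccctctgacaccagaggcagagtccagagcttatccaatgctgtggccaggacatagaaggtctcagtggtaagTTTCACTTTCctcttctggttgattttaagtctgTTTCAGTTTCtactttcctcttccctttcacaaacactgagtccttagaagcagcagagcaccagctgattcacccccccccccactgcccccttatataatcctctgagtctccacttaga
Stat2: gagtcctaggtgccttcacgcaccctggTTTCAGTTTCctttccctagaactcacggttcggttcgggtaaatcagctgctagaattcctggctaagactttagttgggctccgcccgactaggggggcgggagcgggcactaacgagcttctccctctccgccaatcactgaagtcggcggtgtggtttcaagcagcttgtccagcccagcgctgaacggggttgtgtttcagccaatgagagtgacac
Rsad2: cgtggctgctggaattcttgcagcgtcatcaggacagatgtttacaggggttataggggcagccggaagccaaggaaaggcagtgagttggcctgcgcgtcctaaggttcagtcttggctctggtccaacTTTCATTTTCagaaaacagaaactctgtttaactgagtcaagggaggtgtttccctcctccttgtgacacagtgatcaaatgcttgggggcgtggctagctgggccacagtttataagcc
Oasl1: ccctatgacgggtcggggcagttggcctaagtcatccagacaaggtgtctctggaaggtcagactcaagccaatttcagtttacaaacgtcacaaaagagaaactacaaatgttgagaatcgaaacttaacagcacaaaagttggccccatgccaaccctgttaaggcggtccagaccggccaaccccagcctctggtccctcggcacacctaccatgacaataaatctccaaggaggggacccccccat

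Counted from the gene start, the 3 matches of Isg15 began at positions -78, -72 and -66, and overlap. Those of Ifit1 began at -104 and -85, and those of Ifit3 at -156 and -122, on the opposite strand. Stat2 and Rsad2 had 1 match each, at -222 and -120 on the opposite strand, and the Oasl1 window held none. A match describes the letters only. Parp9, Zbp1, Dhx58, Mx1, Usp18, Parp14, Oas2 and Ifi27 had no window in the table used.

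The 4 libraries held 39654 barcodes and between 42290414 and 59078762 unique molecular identifiers (UMIs, counted molecules) each. Between 21 and 29 barcodes were shared by any pair of libraries. After removal of doublets and of nuclei rich in mitochondrial RNA, 36003 nuclei were kept, 9036 and 9371 in the losartan libraries and 8579 and 9017 in the untreated libraries. Clustering without the interferon genes and naming by fixed markers gave 17 classes with 33130 nuclei, where a class name says only which marker set led in a cluster. The libraries differed in their mix: immune nuclei numbered 36 and 67 in the losartan libraries and 165 and 447 in the untreated libraries, endothelial nuclei 301 and 546 against 695 and 902, and nuclei with injured proximal tubule markers 13 and 91 against 243 and 353. Proximal tubule nuclei numbered 4540 and 3754 in the losartan libraries and 2873 and 2116 in the untreated libraries. There were 2 proximal tubule clusters, of 1316 and 343 nuclei in losartan library 1, and a macrophage and dendritic cell cluster, of 80 nuclei in untreated library 2, that came almost entirely from that library. Markers of proximal tubule summed to 9160 CPM (UMIs scaled to the total of the nuclei summed) in tubule nuclei, those of endothelium to 10400 CPM in endothelial nuclei, those of fibroblasts to 3440 CPM in stromal nuclei and those of macrophages and dendritic cells to 6260 CPM in immune nuclei. Marker sets were not confined to their own nuclei. Proximal tubule markers also stood at 1340 CPM in endothelial, 1100 CPM in stromal and 1120 CPM in immune nuclei. The B cell set stood at 1990 CPM in endothelial and 1760 CPM in stromal nuclei, against 731 CPM in immune nuclei. The parietal epithelium set stood at 4070 CPM in stromal nuclei, above the fibroblast set. Over all kept nuclei the members accounted for 191745 of 184018080 UMIs.

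Endothelial and immune nuclei carried the members at the highest level, and proximal and distal convoluted tubule nuclei at the lowest. Summed over the 38 members, endothelial nuclei held 3275 and 3530 CPM in the losartan libraries and 3786 and 4597 CPM in the untreated libraries. Immune nuclei held 3143 and 2962 CPM with losartan and 3106 and 3743 CPM untreated. In fibroblasts the sum was 1773 and 1575 CPM with losartan and 1908 and 2025 CPM untreated, and in proximal tubule it was 547 and 580 CPM with losartan and 732 and 780 CPM untreated. The losartan and untreated libraries did not overlap in endothelium, fibroblasts or proximal tubule, whereas in immune nuclei they did. These classes were clustered from the same nuclei, so the levels are a description and classes were not tested against each other.

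**Figure D1:**
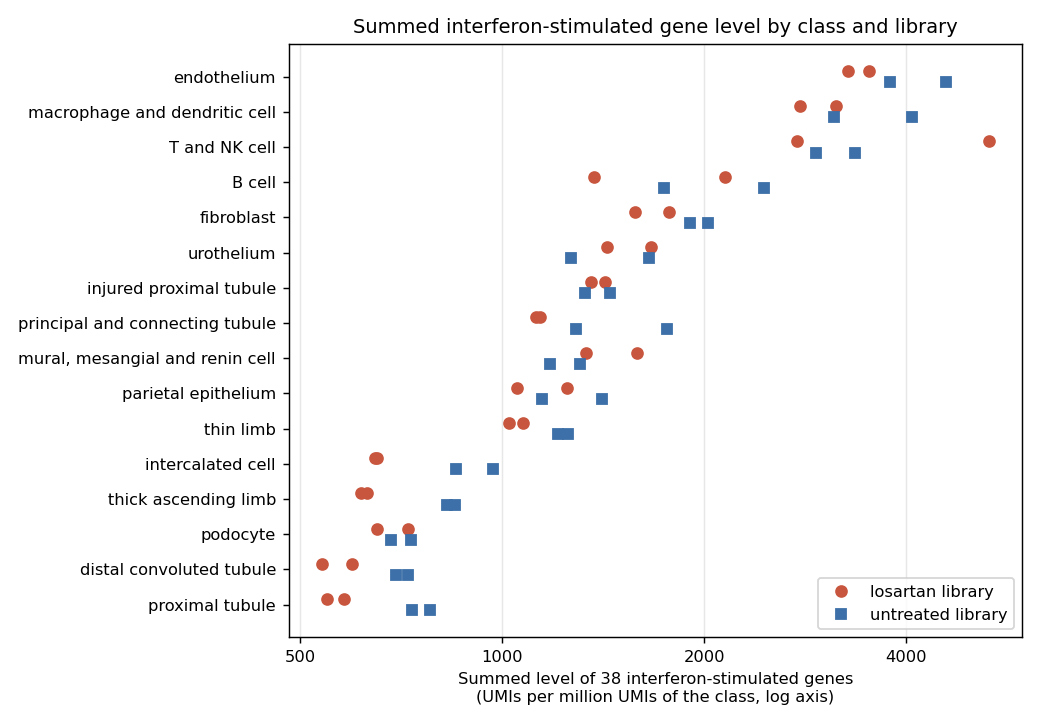
Summed level of the 38 interferon-stimulated genes, in CPM on a log axis, for each class with nuclei in every library; circles are the 2 losartan libraries and squares the 2 untreated libraries. Classes are ordered by their level over all libraries; proximal tubule lies at 547 and 580 with losartan and at 732 and 780 untreated, and endothelium at 3275 and 3530 with losartan and at 3786 and 4597 untreated.

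Set against tubule nuclei of the same library, 35 of the 36 members with at least 200 UMIs were higher in endothelial nuclei in 4 of 4 libraries, a pattern seen in 30.2% of all 14368 genes of that depth. For stromal nuclei it was 35 of 37 members, beside 34.5% of all genes, and for immune nuclei 30 of 36, beside 24.4%. Samd9l, an antiviral factor of the SAMD9 family, was the exception in endothelium: its level over the 4 libraries averaged 243 ± 52.8 CPM in immune nuclei (SD, n = 4) and 28.1 CPM in podocytes, its lowest class. Free RNA in droplets adds a low level of abundant transcripts to every class, so a level near that of the lowest class cannot be read as expression.

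Among 11 classes and the immune nuclei together, endothelium was the highest for 19 members, immune nuclei for 16 and thin limb for 3, with libraries weighted equally. The highest group stood clear of the next beyond the range of the 4 libraries for 10 of the members led by endothelium, 3 of those led by immune nuclei and 1 of those led by thin limb; the other first and second places could not be separated. Rsad2 encodes viperin, which makes a chain-terminating nucleotide. It averaged 427 ± 23.0 CPM in endothelium and 61.9 ± 22.5 CPM in mural, mesangial and renin cells, the next group (SD, n = 4 libraries each). Ifi44 averaged 244 ± 52.9 CPM in endothelium and 41.7 ± 10.9 CPM in immune nuclei. Both were at their lowest in proximal tubule, with 9.64 CPM for Rsad2 and 3.70 CPM for Ifi44. Endothelium also led, clear of the next group, for Oasl2 (154 ± 22.4 CPM, against 97.5 ± 12.4 CPM in fibroblasts), Gbp7, Gbp2, Xaf1, Bst2, Herc6, Cmpk2 and Ifit1. Of these, Bst2 was highest in endothelium in only 3 of the 4 libraries. Herc6, the main ligase that attaches ISG15 in mice, averaged 303 ± 68.3 CPM in endothelium.

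Mx1, a dynamin-like GTPase that blocks influenza virus and whose C57BL/6 allele is known to lack coding exons, was highest in immune nuclei, at 59.0 ± 9.42 CPM, and reached 4.80 ± 1.77 CPM in fibroblasts, the next group. Oas2, an oligoadenylate synthetase that activates RNase L, averaged 92.0 ± 42.5 CPM in immune nuclei and 23.6 ± 19.0 CPM in principal and connecting tubule cells. Apobec3, a cytidine deaminase that restricts retroviruses, averaged 490 ± 58.2 CPM in immune nuclei and 298 ± 47.8 CPM in endothelium. Ifit3, which binds foreign RNA together with its relatives, was highest in thin limb at 61.7 ± 17.4 CPM, against 32.2 ± 8.90 CPM in endothelium. The 4 transcription factors had no clear leader: Stat2 averaged 148 ± 8.88 CPM in endothelium and 135 ± 24.5 CPM in fibroblasts, and Irf7 averaged 20.3 ± 3.22 CPM in immune nuclei and 19.3 ± 8.52 CPM in endothelium. Over 44 points, the 11 classes in 4 libraries, the log level of Oasl2 and of Parp14 had a Pearson correlation of 0.94 with the mean of the other members, followed by Xaf1 at 0.93 and Bst2 at 0.92, and Samd9l was at -0.07; the points share libraries, and classes differ in depth.

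**Figure D2:**
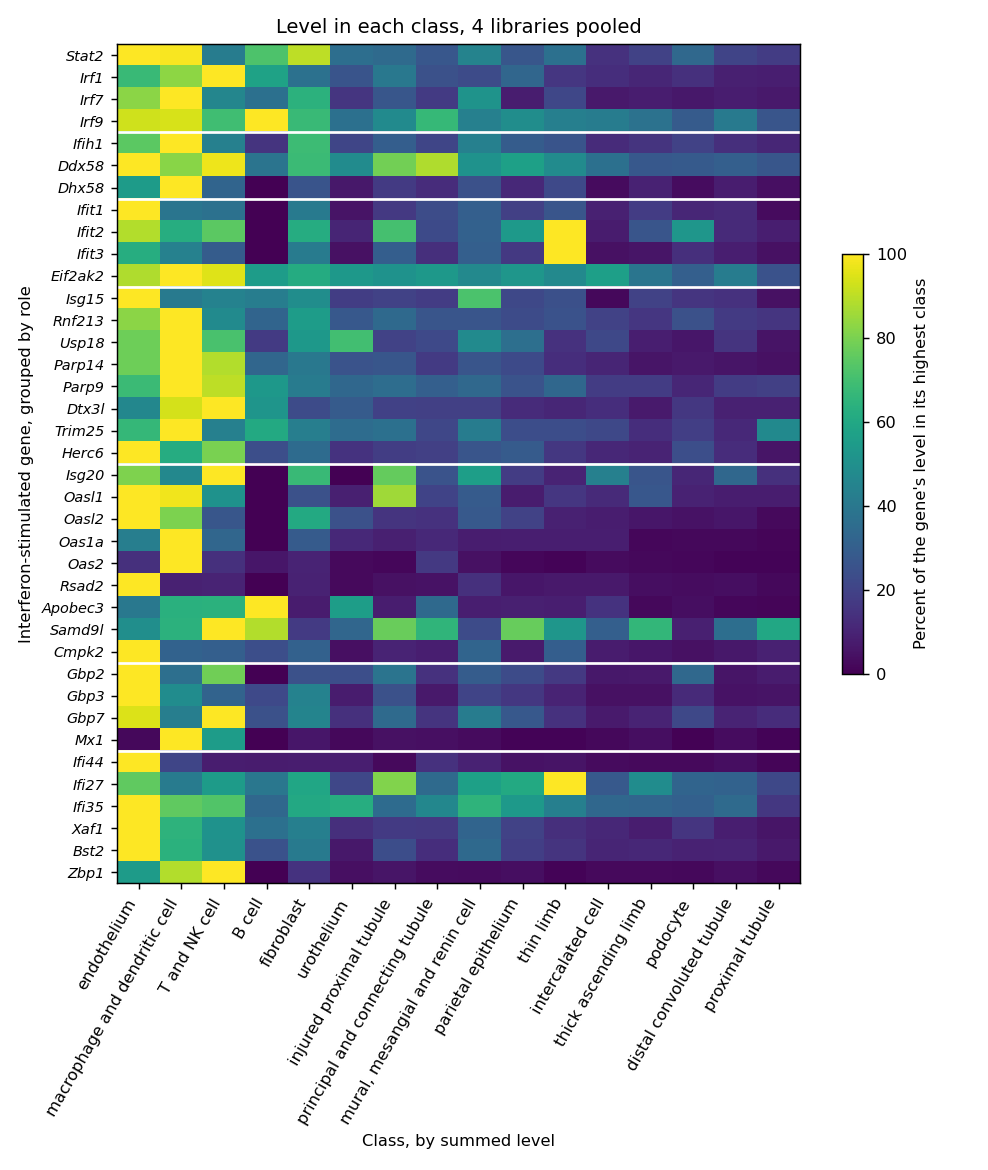
Level of each interferon-stimulated gene (rows, grouped by role) in each class (columns, ordered by summed level), with the 4 libraries pooled, as a percent of that gene's level in its highest class. Bright cells gather at the endothelial and immune columns and dark cells at proximal tubule; Ifit2, Ifit3 and Ifi27 are also bright in thin limb.

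Between the treatments, nearly every member was lower in the losartan libraries. Over all kept nuclei, 37 of 38 members had a log2 change below 0, with a median of -0.69, and 51.4% of the 18410 genes tested lay below 0, with a median of -0.01. In 34 members both losartan libraries lay below both untreated libraries, a pattern seen in 29.1% of all genes. No member passed edgeR's quasi-likelihood test at an adjusted p of 0.05, and neither did any of the 18410 genes (0.0%). At an unadjusted p under 0.05 there were 29 members, each lower with losartan, beside 12.8% of all genes lower at that limit, and DESeq2 called 22 members lower, beside 5.0% of all genes called lower. Here and below, the share of all genes set beside a count at an unadjusted p or beside DESeq2 calls covers lower genes only, and the share beside edgeR's adjusted calls covers both directions. Fewer nuclei of a type and less RNA per nucleus cannot be told apart in these whole-kidney sums.

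The 4 transcription factors were each lower with losartan, with a median log2 change of -0.63. Stat2, the STAT that carries the type I signal, had 36.4 and 38.4 CPM in the losartan libraries and 55.8 and 56.2 CPM in the untreated libraries, both scaled by TMM factors. Its log2 change was -0.58 ± 0.09 (SE), with an adjusted p of 0.110 by edgeR. The 2 groups did not overlap, and the spread within each was small beside the gap. Irf7, which amplifies the type I response, had 2.82 and 3.91 CPM with losartan and 6.48 and 8.40 CPM untreated. Irf1 and Irf9 differed by -0.65 and -0.61 on the log2 scale. Irf7 overlaps Phrf1 and Irf1 overlaps Gm17334 on the opposite strand, and Irf9 overlaps Rnf31 on the same strand, so reads of these pairs may be mixed. In all, 10 members overlap a counted gene on the opposite strand, among them Dhx58, Eif2ak2, Usp18 and Oasl1, with the same limit.

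All 3 RNA sensors were lower with losartan. Ddx58 (RIG-I) had 35.6 and 44.4 CPM in the losartan libraries and 56.7 and 73.4 CPM in the untreated libraries, and Ifih1 (MDA5) had 23.2 and 25.5 CPM with losartan and 32.1 and 35.3 CPM untreated. Dhx58 (LGP2), a regulator of both, differed by -0.80 ± 0.26 on the log2 scale. Among the RNA-binding and translation-blocking effectors, Eif2ak2 (PKR), which stops translation on double-stranded RNA, had 40.2 and 41.3 CPM with losartan and 54.5 and 57.7 CPM untreated, a log2 change of -0.46 ± 0.09 with an adjusted p of 0.113 by edgeR. Ifit1, Ifit2 and Ifit3 lay between -0.92 and -0.69. In each of these members both losartan libraries were below both untreated libraries.

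Of the 8 genes of ubiquitin-like tagging and ADP-ribosylation, 7 were lower with losartan. Isg15, the modifier itself, had 2.63 and 2.90 CPM in the losartan libraries and 4.32 and 8.02 CPM in the untreated libraries. Usp18, which removes ISG15 and restrains the receptor, had 6.74 and 7.79 CPM with losartan and 11.5 and 14.3 CPM untreated, a log2 change of -0.83 ± 0.17 with an adjusted p of 0.1203 by edgeR. Rnf213, a large ubiquitin ligase of vascular and antimicrobial defence, had 96.7 and 97.2 CPM with losartan and 132 and 131 CPM untreated. Its log2 change of -0.44 ± 0.09 was modest, and the libraries of a group lay close together. Parp14, an ADP-ribosyltransferase, differed by -0.71. Trim25, the ligase that acts on RIG-I, was the member above 0, at 0.04 ± 0.09, with 60.2 and 57.5 CPM with losartan and 59.3 and 55.6 CPM untreated.

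The nucleases and nucleotide enzymes include the oligoadenylate synthetase family. Oasl1, known in mouse as a translational brake on Irf7, had 3.22 and 3.58 CPM in the losartan libraries and 7.92 and 7.85 CPM in the untreated libraries, a log2 change of -1.21 ± 0.16 with an adjusted p of 0.110 by edgeR. Oas2 had 3.07 and 3.44 CPM with losartan and 7.65 and 14.5 CPM untreated, and its log2 change of -1.77 ± 0.34 was the most negative of the 38, although the 2 untreated libraries also lay far apart. Oasl2 had 15.9 and 20.2 CPM with losartan and 29.8 and 33.2 CPM untreated. In the same role group, Rsad2 differed by -0.30 ± 0.10, Apobec3 by -0.83 ± 0.20 and Samd9l by -0.0045 ± 0.13. Samd9l had 164 and 156 CPM with losartan and 145 and 176 CPM untreated, so the groups overlapped, and its sign turned with the size factors of DESeq2. Without any scaling Trim25 lay at -0.12 and Samd9l at -0.16.

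Among the GTPases, Mx1 had 1.09 and 1.74 CPM in the losartan libraries and 3.31 and 4.49 CPM in the untreated libraries, and Gbp2, Gbp3 and Gbp7, guanylate-binding proteins that coat pathogen-containing vacuoles, lay between -0.68 and -0.41 on the log2 scale. Of the remaining members, Zbp1, a sensor of left-handed nucleic acid that triggers necroptosis, had 1.41 and 1.84 CPM with losartan and 3.86 and 5.40 CPM untreated, a log2 change of -1.51 ± 0.28. Ifi44 had 14.3 and 16.2 CPM with losartan and 23.8 and 31.8 CPM untreated. Xaf1, a promoter of apoptosis, had 9.71 and 10.7 CPM with losartan and 14.98 and 17.5 CPM untreated. Bst2 (tetherin), which holds budding virions at the membrane, differed by -0.87. The 14 members with the response element in their window had a median of -0.69 and the 16 with a window but no match a median of -0.66, so the 2 medians were close.

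**Figure D3:**
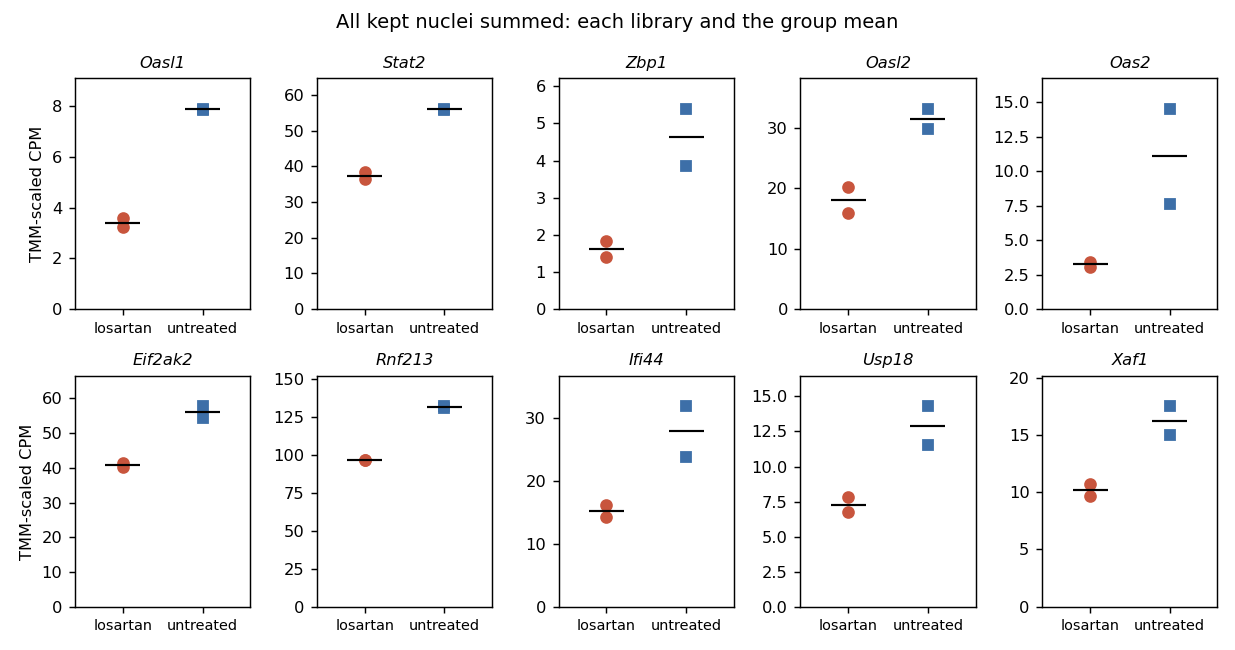
TMM-scaled CPM of the 10 interferon-stimulated genes with the smallest p in all kept nuclei, losartan at the left and untreated at the right of each panel; points are libraries and bars the group means, on axes that start at 0. In each panel both losartan libraries lie below both untreated libraries, as in Oasl1 at 3.22 and 3.58 with losartan and at 7.92 and 7.85 untreated.

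Both the mix of nuclei and the level inside classes differed between the treatments. Without TMM scaling, the summed level was 767 and 888 CPM in the losartan libraries and 1156 and 1416 CPM in the untreated libraries. On that unscaled basis the median of all tested genes was -0.16 and that of the members -0.84. Over the 16 named classes found in every library and the unnamed nuclei, the summed level differed by -0.64 on the log2 scale as measured. It differed by -0.31 when each class kept its own levels and class shares were held at their mean, and by -0.31 when shares moved and levels were held. With shares held, 37 of 38 members remained below 0, beside 64.6% of all genes tested, and in 32 members both losartan libraries were below both untreated libraries, beside 33.1%. The members' median was then -0.34 and that of all genes -0.07. Rsad2 was the member above 0, at 0.19. Oas2 at -1.24, Zbp1 at -1.11, Irf7 at -0.93 and Isg15 at -0.86 lay farthest below. When shares moved and levels were held, the members' median was -0.46.

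**Figure D4:**
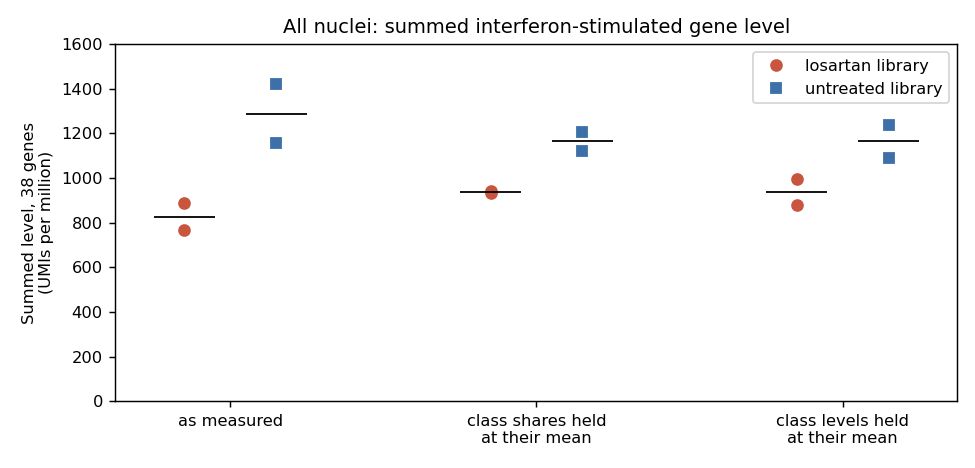
Summed level of the 38 interferon-stimulated genes over all nuclei, in CPM, as measured, with class shares held at their mean over libraries, and with class levels held at their mean; circles are losartan libraries, squares untreated libraries and bars group means. The log2 difference of the means is -0.64 as measured and -0.31 in both of the other settings.

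Of the 38 members tested in tubule, 36 were lower with losartan, with a median log2 change of -0.75, beside 51.9% of the 17341 genes tested below 0 and a median of -0.01. No member was called by edgeR, and no gene was (0.0%). In all, 27 members had an unadjusted p under 0.05, each lower with losartan, beside 12.0% of genes; DESeq2 called 17 lower, beside 3.95%. In 32 members both losartan libraries lay below both untreated libraries, beside 28.8% of genes. Oasl1 had 2.15 and 1.79 CPM in losartan tubule and 6.66 and 6.16 CPM in untreated tubule, a log2 change of -1.70 ± 0.20 with an adjusted p of 0.0755 by edgeR. Parp14 had 16.4 and 16.6 CPM with losartan and 27.8 and 30.1 CPM untreated, and Ifit2 had 5.44 and 6.52 CPM with losartan and 12.2 and 12.9 CPM untreated. In these 3 the libraries of a group lay close together and far from the other group. Trim25 at 0.09 and Rsad2 at 0.09 were the members above 0.

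Markers of other cell types also differed between the treatments inside tubule nuclei. The summed level of 10 macrophage and dendritic cell markers was 95.5 and 114 CPM in losartan tubule and 167 and 145 CPM in untreated tubule, or 2.62% of the level in immune nuclei, and 7 of the 10 were lower in both losartan libraries. For 9 T and NK cell markers it was 37.2 and 45.9 CPM with losartan and 76.6 and 52.9 CPM untreated, with 6 lower in both. The 8 injured proximal tubule markers summed to 297 and 429 CPM with losartan and 572 and 607 CPM untreated, with 7 lower in both. The 9 endothelial markers ran the other way, at 225 and 214 CPM with losartan and 185 and 138 CPM untreated, with 6 higher in both. No marker of these 4 lists was at 0 in tubule nuclei. Without the injured proximal tubule nuclei, 36 of 38 members were still lower, with a median of -0.70, and without all proximal tubule nuclei 35 were, with a median of -0.56. Without the clusters held by 1 library the median was -0.69. The part of free or neighbouring RNA in the tubule values was not tested.

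In thick ascending limb, 34 of the 35 members tested were lower with losartan, beside 50.7% of genes, with a median of -0.62; none was called, beside 0.278% of 13318 genes. There were 17 members with an unadjusted p under 0.05, all lower, beside 5.71% of genes, and 2 that DESeq2 called lower, beside 0.481%. In 32 of the 35 both losartan libraries were below both untreated libraries, beside 20.7% of genes. Oasl1 had 2.12 and 1.18 CPM with losartan and 9.19 and 16.2 CPM untreated, a log2 change of -2.96 ± 0.47 and an adjusted p of 0.0704 by edgeR, the smallest of any member in any group of nuclei. Ddx58 had 17.6 and 24.1 CPM with losartan and 42.9 and 50.3 CPM untreated, and Herc6 had 22.4 and 25.3 CPM with losartan and 38.5 and 41.2 CPM untreated. The summed level in this class was 615 and 629 CPM with losartan and 826 and 851 CPM untreated. Macrophage and dendritic cell markers in the same nuclei summed to 114 and 124 CPM with losartan and 172 and 137 CPM untreated. Of these 10 markers, 6 were lower in both losartan libraries. Injured proximal tubule markers summed to 231 and 307 CPM with losartan and 441 and 416 CPM untreated. Proximal tubule markers ran the other way, at 1605 and 1337 CPM with losartan and 1048 and 448 CPM untreated. Of these 10 markers, 9 were higher in both losartan libraries. The part of these lists in the member values was not tested.

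In proximal tubule, 36 of 38 members were lower, beside 51.9% of genes, with a median of -0.57; edgeR called none of the 15647 genes (0.0%) and DESeq2 called 2 members lower, beside 1.13% of genes. At an unadjusted p under 0.05 there were 15 members, all lower, beside 7.24% of genes, and in 25 both losartan libraries were below both untreated libraries, beside 23.9%. Ifi27 had 11.6 and 13.4 CPM in losartan proximal tubule and 21.6 and 25.5 CPM in untreated proximal tubule, a log2 change of -0.92 ± 0.16. Irf1 had 6.72 and 7.15 CPM with losartan and 12.8 and 11.6 CPM untreated, and Ifit2 had 2.80 and 3.67 CPM with losartan and 8.50 and 6.74 CPM untreated. Inside this class the 8 injured proximal tubule markers summed to 341.5 and 500 CPM with losartan and 627 and 593 CPM untreated, with 8 lower in both losartan libraries. The 10 macrophage and dendritic cell markers summed to 88.5 and 106 CPM with losartan and 157 and 133 CPM untreated, with 7 lower in both. The 9 endothelial markers ran the other way, at 165 and 173 CPM with losartan and 148 and 104 CPM untreated, with 6 higher in both. The part of these lists in the member values was not tested. Nuclei named for injured proximal tubule markers, kept apart from this class, had a summed member level of 1356 and 1423 CPM with losartan and 1328 and 1450 CPM untreated, so here the groups overlapped, on as few as 13 nuclei in losartan library 1.

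Principal and connecting tubule cells showed the same direction in 27 of 30 members, beside 50.6% of genes below 0, with a median of -0.66 and no call among 12043 genes (0.0%). There were 9 members with an unadjusted p under 0.05, all lower, beside 2.48% of genes, and 19 with both losartan libraries below both untreated libraries, beside 17.0%. Oas2 had 7.61 and 10.5 CPM with losartan and 27.8 and 49.0 CPM untreated, and was the member called by DESeq2, which called 0.083% of genes lower. Stat2 had 30.4 and 28.4 CPM with losartan and 52.3 and 49.3 CPM untreated, and Rnf213 had 99.4 and 91.1 CPM with losartan and 130 and 152 CPM untreated. The class joined 4 clusters, whose shares differed between libraries: cluster 9 held 114 and 175 nuclei in the losartan libraries and 5 and 275 in the untreated libraries. In cluster 20, with 368 and 363 nuclei in the losartan libraries and 439 and 479 in the untreated libraries, the summed member level was 874 and 953 CPM with losartan and 1216 and 1426 CPM untreated. In the whole class the injured proximal tubule markers summed to 84.8 and 121 CPM with losartan and 218 and 304.5 CPM untreated, the endothelial markers to 673 and 458.5 CPM with losartan and 367 and 195 CPM untreated, and 9 of the 10 proximal tubule markers were higher in both losartan libraries. Their part in the member values was not tested.

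Intercalated cells had 18 of 20 members lower, beside 49.4% of genes, with a median of -0.43; none was called by edgeR, beside 0.0104% of 9630 genes, or by DESeq2, beside 0.0519% called lower. In 4 members, all lower, the unadjusted p was under 0.05, beside 3.14% of genes, and in 10 both losartan libraries were below both untreated libraries, beside 18.1%. Apobec3 had 73.5 and 85.9 CPM with losartan and 141 and 145 CPM untreated, a log2 change of -0.84 ± 0.17; it overlaps Cbx7 on the opposite strand. Ddx58 had 30.3 and 33.0 CPM with losartan and 51.8 and 69.1 CPM untreated, and Herc6 had 28.0 and 27.1 CPM with losartan and 47.8 and 42.3 CPM untreated. The groups did not overlap in these 3 genes. In the same nuclei the T and NK cell markers summed to 42.2 and 12.5 CPM with losartan and 69.5 and 67.4 CPM untreated, with 3 of 9 lower in both losartan libraries. The macrophage and dendritic cell markers summed to 122 and 131.5 CPM with losartan and 211 and 163 CPM untreated, with 4 of 10 lower in both and 1 higher. The injured proximal tubule markers summed to 63.3 and 89.5 CPM with losartan and 119.8 and 162.6 CPM untreated, with 3 of 8 lower in both. Proximal tubule markers ran the other way, at 1392 and 1407 CPM with losartan and 1034 and 485 CPM untreated, with 8 of 10 higher in both. So did endothelial markers, at 463 and 300 CPM with losartan and 286 and 205 CPM untreated, with 4 of 9 higher in both. The part of these lists in the member values was not tested.

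In distal convoluted tubule 19 of 26 members were lower, beside 51.0% of genes, with a median of -0.23; none was called, beside 0.114% of 12333 genes, and DESeq2 called none, beside 0.251% of genes called lower. In 8 members, all lower, the unadjusted p was under 0.05, beside 4.62% of genes, and in 13 both losartan libraries were below both untreated libraries, beside 20.3%. Ifit3 had 2.42 and 2.19 CPM with losartan and 7.83 and 6.09 CPM untreated. Ddx58 differed by -0.57 and Eif2ak2 by -0.47. In these nuclei the endothelial markers summed to 416 and 300 CPM with losartan and 178 and 143 CPM untreated, with 8 of 9 higher in both losartan libraries, and the injured proximal tubule markers to 72.0 and 113 CPM with losartan and 345 and 344 CPM untreated; their part in the member values was not tested. Thin limb had 15 of 21 members lower, beside 50.8% of genes, with a median of -0.20. EdgeR called none of 8217 genes (0.0%) and DESeq2 no member, beside 0.0122% of genes called lower; 2 members had an unadjusted p under 0.05, beside 1.41%, and 4 had both losartan libraries below both untreated libraries, beside 15.3%. Bst2 there had 13.1 and 3.83 CPM with losartan and 21.4 and 26.3 CPM untreated, and Ifih1 had 13.1 and 24.9 CPM with losartan and 47.7 and 40.0 CPM untreated. Thin limb held 102 and 166 nuclei with losartan and 191 and 302 untreated, with 353 and 559 member UMIs against 759 and 1217. Macrophage and dendritic cell markers there summed to 137 and 185 CPM with losartan and 264 and 231 CPM untreated, 7 of 10 lower in both. Proximal tubule markers ran the other way, at 1880 and 1627 CPM with losartan and 1231 and 650 CPM untreated, 7 of 10 higher in both. The part of either list in these values was not tested.

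**Figure D5:**
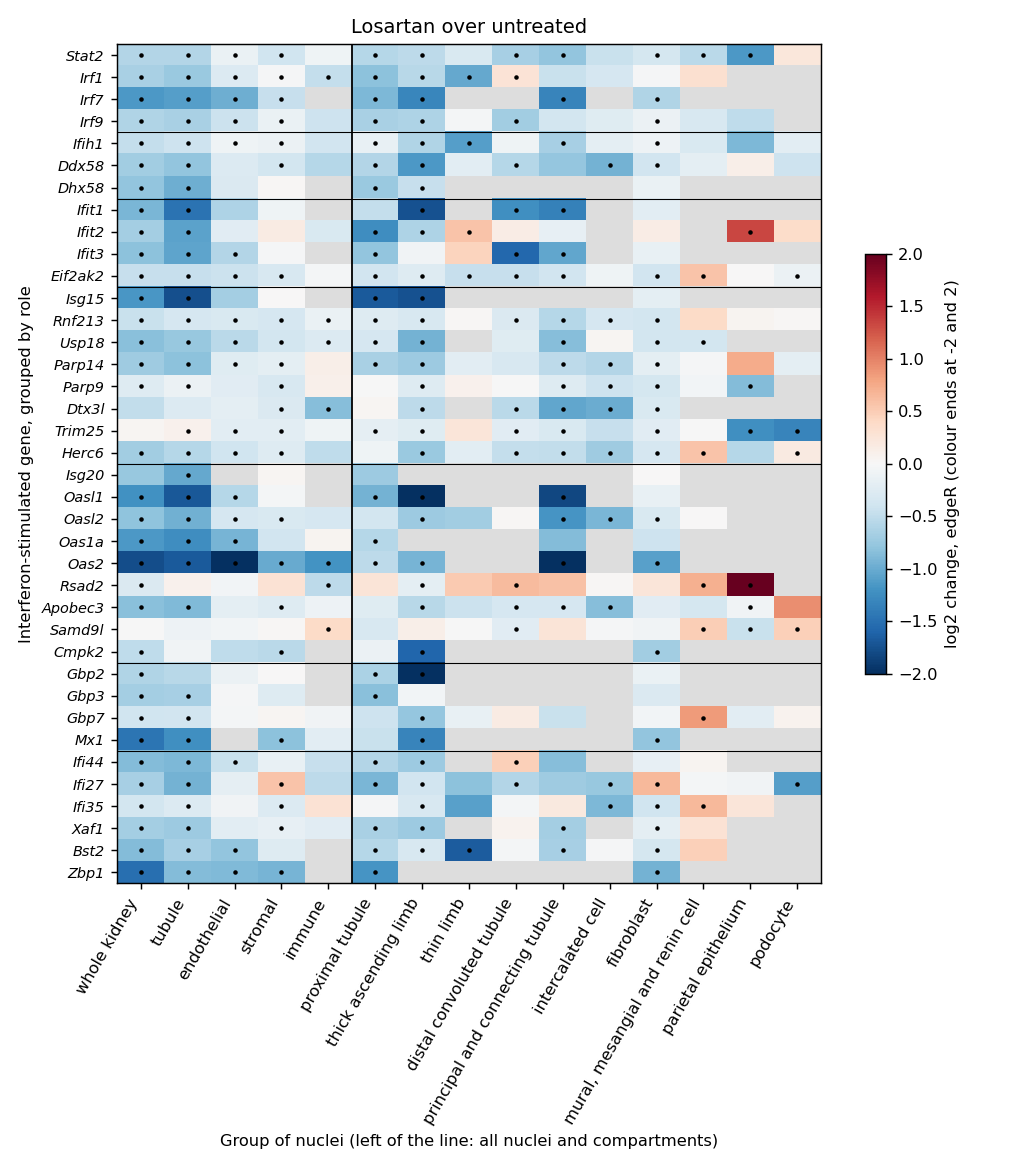
Fitted log2 change, losartan over untreated, of each interferon-stimulated gene (rows, grouped by role) in all nuclei, the 4 compartments and 10 classes (columns); blue is lower with losartan, red higher, grey below the count filter, and a dot marks groups that do not overlap. Blue fills most of the tubular columns, with medians of -0.75 in tubule and -0.62 in thick ascending limb. Distal convoluted tubule and thin limb hold more red, with 7 of 26 and 6 of 21 members above 0. The mural, parietal and podocyte columns are mixed, with medians of 0.03, -0.07 and 0.02.

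Endothelial nuclei, in which the members are abundant, were lower with losartan across the list. All 36 members tested had a log2 change below 0, with a median of -0.29, beside 51.8% of 11465 genes below 0 and a median of -0.01. None was called by edgeR, beside 0.00872% of genes, or by DESeq2, beside 0.0% of genes called lower; 7 had an unadjusted p under 0.05, beside 2.11%, and in 19 both losartan libraries were below both untreated libraries, beside 17.8%. Without untreated library 2, which leaves 1 untreated library, 26 of 36 were below 0 and the median was -0.15. Without untreated library 1, 36 of 36 were below 0 and the median was -0.46. Oas2 had 11.0 and 4.14 CPM in losartan endothelium and 20.005 and 39.3 CPM in untreated endothelium. Irf7 had 11.0 and 14.8 CPM with losartan and 21.5 and 30.3 CPM untreated, and Ifi44 had 205 and 211 CPM with losartan and 251 and 317 CPM untreated. Rsad2 overlapped between the groups, at 428 and 422 CPM with losartan and 414 and 463 CPM untreated. Endothelial nuclei were also split by a UMI of Plvap, a gene of fenestrated capillaries, and of Ehd3, a gene of glomerular endothelium. Those with Plvap and no Ehd3 had a summed level of 3345 and 3741 CPM with losartan and 4050 and 4771 CPM untreated. Those with Ehd3 and no Plvap had 3129 and 2770 CPM with losartan and 3137 and 3531 CPM untreated. The latter were only 26 and 39 nuclei with losartan and 45 and 51 untreated. Nuclei with both genes numbered 49 and 99 with losartan and 119 and 193 untreated, so the split does not separate the 2 kinds cleanly. Macrophage and dendritic cell markers in endothelial nuclei summed to 150 and 172 CPM with losartan and 237 and 238 CPM untreated. Of these 10 markers, 7 were lower in both losartan libraries. Proximal tubule markers ran the other way, at 2245 and 1817 CPM with losartan and 1423 and 738 CPM untreated. Of these 10 markers, 8 were higher in both losartan libraries. The part of either list in the member values was not tested.

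Counts per nucleus were compared at equal depth. When each nucleus was thinned to 1000 UMIs, which left out no nucleus, 0.432% (95% exact binomial interval 0.292 to 0.616) and 0.472% (0.321 to 0.669) of tubule nuclei in the losartan libraries held at least 5 member UMIs. In the untreated libraries it was 1.18% (0.926 to 1.49) and 2.33% (1.94 to 2.77). In endothelium the share was 23.3% (18.6 to 28.4) and 26.9% (23.2 to 30.9) with losartan and 30.6% (27.2 to 34.2) and 40.0% (36.8 to 43.3) untreated. Without thinning the tubule shares were 21.8% and 21.7% with losartan and 24.2% and 42.1% untreated. The intervals cover counting error only. Thinning does not hold the mix of classes inside tubule. Proximal tubule nuclei were 4540 of 6941 and 3754 of 6574 tubule nuclei with losartan, and 2873 of 5995 and 2116 of 5322 untreated. Injured proximal tubule nuclei numbered 13 and 91 with losartan and 243 and 353 untreated. The part of this mix in the shares was not tested.

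Stromal nuclei had 29 of 38 members lower, with a median of -0.23, beside 49.8% of 13693 genes below 0. EdgeR called no gene (0.0%), and DESeq2 called no member, beside 0.519% of genes called lower. There were 6 members with an unadjusted p under 0.05, 5 of them lower, beside 4.43% of genes that were lower at that limit, and 22 with both losartan libraries below both untreated libraries, beside 20.1%. Oas2 had 12.3 and 8.44 CPM in losartan stroma and 18.1 and 22.4 CPM in untreated stroma. Ddx58 had 75.3 and 71.7 CPM with losartan and 93.5 and 96.8 CPM untreated, and Stat2 had 122 and 99.7 CPM with losartan and 138 and 151 CPM untreated. The 9 endothelial markers in stromal nuclei summed to 1464 and 1049 CPM with losartan and 686.5 and 713.5 CPM untreated, with 8 higher in both losartan libraries. The 7 fibroblast markers summed to 2562 and 3137 CPM with losartan and 3393 and 4199 CPM untreated, with 5 lower in both, and the part of either list in the stromal values was not tested. In fibroblasts, 34 of 38 were lower, beside 49.7% of genes, none called by edgeR, beside 0.00745% of 13427 genes; Ifi27 ran the other way, with 55.2 and 53.4 CPM with losartan and 26.8 and 42.0 CPM untreated. DESeq2 called no member in fibroblasts, beside 0.492% of genes called lower. At an unadjusted p under 0.05, 6 members were lower, beside 4.7% of genes, and Ifi27 was higher; in 21 both losartan libraries were below both untreated libraries, beside 19.4%. Mural, mesangial and renin cells had 10 of 22 members lower, beside 51.3% of genes, and a median of 0.03. None was called there by edgeR, beside 0.913% of 7340 genes, or by DESeq2, beside 0.15% called lower, and none had an unadjusted p under 0.05, beside 5.27%; 2 had both losartan libraries below both untreated libraries, beside 22.2%. Gbp7 there had 75.8 and 63.9 CPM with losartan and 53.3 and 27.3 CPM untreated. Herc6 and Rsad2, also among the 3 smallest p there, had a log2 change above 0 too. Endothelial markers in these nuclei summed to 2583 and 1986 CPM with losartan and 1432 and 738 CPM untreated, and their part in the Gbp7 value was not tested.

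Glomerular epithelium had few members above the count filter. In parietal epithelium 10 of 17 were lower, beside 50.6% of genes, with none called by edgeR, beside 0.017% of 5892 genes, or by DESeq2, beside 0.0% called lower. In 4, 2 of them lower, the unadjusted p was under 0.05, beside 3.29% of genes lower at that limit, and in 5 both losartan libraries were below both untreated libraries, beside 17.7%. Rsad2 had 43.2 and 67.2 CPM with losartan and 22.0 and 7.91 CPM untreated, Ifit2 had 52.8 and 56.0 CPM with losartan and 11.0 and 27.7 CPM untreated, and Stat2 had 28.8 and 22.4 CPM with losartan and 55.1 and 57.4 CPM untreated. In podocytes 6 of 13 were lower, beside 50.9% of genes, with none called by edgeR, beside 0.196% of 6627 genes, or by DESeq2, beside 0.0754% called lower, and 2 with an unadjusted p under 0.05, beside 3.56%. In 3 both losartan libraries were below both untreated libraries, as in 1196 of the 6627 genes. Trim25 had 19.8 and 9.64 CPM with losartan and 36.1 and 38.1 CPM untreated. Of the others among the 3 smallest p there, Ifi27 lay below 0, whereas Apobec3 ran the other way, with a log2 change of 0.93. These classes hold between 62 and 186 nuclei per library. Across the 10 classes in which Rsad2 was tested its log2 change was above 0 in 8, none of them called, whereas Ifih1 was below 0 in all 11 classes tested and Irf9 in all 10. In those 8 classes, between 2 and 8 of the 9 endothelial markers were higher in both losartan libraries, with 8 in distal convoluted tubule, fibroblasts and mural cells; their part in the Rsad2 values was not tested.

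The immune nuclei were few. With 36 and 67 nuclei in the losartan libraries and 165 and 447 in the untreated libraries, 12 of the 38 members fell below the count filter. Of the 26 tested, 21 were lower with losartan, beside 50.2% of genes, with a median of -0.25; none was called by edgeR, beside 0.0324% of 6179 genes, or by DESeq2, beside 0.0162% called lower, and 1 had an unadjusted p under 0.05, beside 3.59%. In 6 both losartan libraries were below both untreated libraries, beside 19.5% of genes. Without untreated library 2, which leaves 1 untreated library, 12 of 22 were lower, and without untreated library 1, 21 of 24 were. Oas2 had 64.3 and 61.4 CPM with losartan and 124 and 157 CPM untreated. Dtx3l, the partner ligase of Parp9, had 42.9 and 44.6 CPM with losartan and 67.5 and 87.4 CPM untreated, and Herc6 overlapped, at 214 and 123 CPM with losartan and 197 and 255 CPM untreated. Dtx3l and Parp9 overlap each other on opposite strands. The 10 macrophage and dendritic cell markers in immune nuclei summed to 3673 and 4226 CPM with losartan and 4930 and 7099 CPM untreated. Of these 10 markers, 6 were lower and 1 was higher in both losartan libraries. Proximal tubule markers ran the other way, at 2150 and 2138 CPM with losartan and 1719 and 737 CPM untreated, with 6 of 10 higher in both. The part of either list in the member values was not tested.

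Whether the treatment difference itself differed between compartments was tested in a joint fit. For endothelial minus tubule, 30 of 38 members lay above 0, with a median of 0.34 beside -0.01 over 16766 genes; a positive value means a less negative losartan effect in endothelium. The tubule side sums classes whose mix differed between the treatments, and the part of that mix in these values was not tested. Isg20 and Mx1, among these 38, were below the count filter in endothelial nuclei themselves. No member was called by edgeR, beside 0.316% of genes, or by DESeq2. There were 11 members with an unadjusted p under 0.05, all above 0, beside 3.8% of genes. The smallest p was that of Apobec3, at 0.64 ± 0.19 with an adjusted p of 0.290 by edgeR, followed by Parp14 at 0.56, Ifi27 at 0.77 and Oasl2 at 0.62. For immune minus tubule, no member was called by edgeR, beside 0.364% of 16505 genes, or by DESeq2, and 12 of the members were below the count filter in immune nuclei themselves. Parp14 and Apobec3 had an unadjusted p under 0.05 and lay above 0, beside 1.94% of genes.

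Other genes of the interferon pathway were mostly lower. Their list, like the members, was chosen with earlier results of these data known, so it is no independent support. Of 122 other genes listed, 119 had a single row and 96 were tested in all nuclei; 88 were lower with losartan, beside 51.4% of all genes, with a median of -0.50. In 48, all lower, the unadjusted p was under 0.05, beside 12.8% of all genes, and the smallest adjusted p by edgeR was 0.110. All 61 of the other interferon-stimulated genes tested were lower, with a median of -0.63. Among them Gbp8 had 4.74 and 5.30 CPM with losartan and 10.4 and 11.6 CPM untreated, and Epsti1 had 16.3 and 19.9 CPM with losartan and 37.7 and 50.02 CPM untreated. Tap1, which loads peptides onto MHC class I, had 8.17 and 8.51 CPM with losartan and 15.1 and 15.9 CPM untreated. Nlrc5, the transactivator of those MHC genes, differed by -1.10 ± 0.21, Ddx60 by -0.81, Trim34a by -0.65, Parp12 by -0.58, Sp100 by -0.63, Sp110 by -1.03 and Trim30a by -0.90.

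Upstream of these targets, all 6 interferon receptor genes were lower over all kept nuclei, with a median of -0.30. The lowest lay at -0.44, with Ifnar2 at -0.37 and Ifngr1 at -0.28. Inside compartments, 5 of 6 were lower in tubule (median -0.14) and 5 of 6 in endothelium (median -0.07). In stroma it was 2 of 6 (median 0.08), and in immune nuclei 4 of the 5 tested (median -0.19). Of the 6 kinase and STAT genes tested, 5 were lower, beside 51.4% of all genes, with a median of -0.35. Jak1, a kinase bound to the interferon receptors, differed by 0.08. Of 21 interferon ligand genes, 20 were below the count filter, with between 0 and 7 UMIs each over all kept nuclei: Ifnab had 7, Ifnz 6, Ifng 4, Ifna16 1 and the others 0. A ligand could therefore not be compared between the groups at this depth, apart from Ifnk, which differed by 0.79 ± 0.34 and was not called. Socs3, a feedback inhibitor of cytokine receptors, had 1.26 and 2.23 CPM with losartan and 4.61 and 5.42 CPM untreated. In tubule 80 of 94 pathway genes were lower, beside 51.9% of all genes, and 35 had an unadjusted p under 0.05, all lower, beside 12.0%. In endothelium 67 of 82 were lower, beside 51.8%.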

How the data were processed

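The deposited matrices hold raw counts of UMIs per gene and nucleus, made by the authors with Cell Ranger 5.0.0, per the file headers; the submitters' processing notes also name build mm10 and Bowtie 0.12.2. The sources used here do not state strand use or intron counting. The floor for a barcode was 500 UMIs and 300 genes, and the ceiling 10% mitochondrial UMIs. Scrublet marked doublets per library; where it marked under 0.5%, top-scoring nuclei were dropped instead, 0.8% for every 1000 barcodes. Nuclei were clustered with scanpy 1.11.5 without the interferon genes (3000 variable genes, 30 components, 15 neighbours, resolution 1) and named from 24 marker sets. Naming asked for 3 markers, each seen in 10% of the nuclei, and a score lead of 0.25.

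Counts were summed per library and group of nuclei, and the 11 classes whose smallest library held 50 or more nuclei were tested. The main test was edgeR 4.0.16 (quasi-likelihood, TMM scaling, low-count filter, limma 3.58.1, R 4.3.3) over all genes, with Benjamini-Hochberg adjustment at 0.05; log2 changes are losartan over untreated. DESeq2 1.42.0 was an alternative. CPM in treatment comparisons are TMM-scaled; class levels and marker sums are not. An exact permutation test of 2 against 2 libraries cannot go below 0.333. The libraries of a group were not duplicates, since their counts differed by a chi-square of 44.1 per degree of freedom with losartan and 48.5 untreated. Gene positions are from GENCODE M21 and promoter windows from RefSeq. Members named by rule are the 10 smallest p in all nuclei and the 3 smallest in each group of nuclei. The values of some of these are not printed for fibroblasts, mural cells, thin limb and podocytes. Other members are given for their role. The members and lists were chosen with earlier results of these data known. The values of a single gene of the pathway list are not reported here.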

Additional observations from a re-analysis of the deposited data

Results flagged for a closer look

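In the joint fit of immune and tubule nuclei, Mavs, the mitochondrial adaptor of the RNA sensors RIG-I and MDA5, passed edgeR's test of a losartan effect that differs between the compartments, with an adjusted p of 0.00988. Immune nuclei held 0 and 0 Mavs UMIs in the losartan libraries and 18 and 59 in the untreated libraries, and tubule nuclei held 2107 and 2033 UMIs with losartan and 1684 and 2352 untreated. The fitted difference, -12.01 on the log2 scale for immune minus tubule, is set against counts of 0, so it is neither a size nor a bound. The losartan libraries held 36 and 67 immune nuclei.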

How the results depend on the processing

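Of 694 alternative values for the 55 values of members named by rule, none reversed: 630 kept their side of the threshold and their direction, and 64 came to lie past the threshold with the direction kept. Among the settings, a floor of 1000 UMIs left out no nucleus of the 4 compartments. The named endothelial members are counted both as compartment and as class, on the same nuclei. Against 0 called by edgeR in each group of nuclei, DESeq2 called 22 members in the whole kidney, 17 in tubule and 5 over the single classes. Outside that rule, Samd9l in the whole kidney, near 0, changed sign with the DESeq2 size factors. With no low-count filter the calls numbered 4 in tubule, 2 in endothelium, 1 in stroma and 6 over the single classes. The 6 include the 2 in endothelium, which is also a class. With doublets kept there were 2 over the single classes, Apobec3 and Ddx58 in intercalated cells. Leaving out each library in turn left 1 library in a group and shifted the size of the change. The median lay between -0.46 and -0.15 in endothelium and between -0.36 and -0.05 in immune nuclei. The cause was not tested. Members lower in immune nuclei numbered 35 of 38 with no low-count filter. That count takes in members with few UMIs, such as Isg20 with 0 and 0 in the losartan libraries and 0 and 5 in the untreated libraries. The share of all genes below 0 in that setting is not given here, so the count cannot be judged against it. On leaving out a library, 12 to 23 members were lower in immune nuclei. In the whole kidney they numbered 36 to 37, with medians between -0.91 and -0.54. The replicate numbers were shared by both groups, and the correlation of deviations between same-numbered libraries ran between 0.13 and 0.44 over groups of nuclei, with 2 pairs only. With the number as a replicate block, calls numbered 25 in the whole kidney, 18 in tubule, 2 in endothelium and 8 over the single classes. All were lower with losartan, and the 8 include the 2 in endothelium. For settings other than DESeq2 the share of all genes called is not given here, so these numbers cannot be judged against it. The joint fits of compartments were not run with a block. Leaving out the clusters held by 1 library was chosen after seeing the data. Immune, parietal and podocyte nuclei are limited by their number, and 12 to 25 members fell below the count filter there.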
